A study of Mus musculus with 8 samples.

Results

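miR-34a is 1 of the 567 mouse miRNAs on an array that was hybridised with RNA from dendritic cells grown in culture. It was found by its systematic name, mmu-miR-34a, in the scanner output and in the per-miRNA summary of all 8 arrays. The cells were bone-marrow-derived dendritic cells of C57BL/6 mice, kept with GM-CSF at 40 ng/ml until day 9. In 4 samples the cells were left untreated, with a control given as medium alone in one label and as PBS in another. In the other 4 they were exposed overnight to ODN1826, a CpG oligonucleotide of class B that is sensed by TLR9, at 10 µM. The comparison asks which miRNAs differ between resting and CpG-stimulated cells. No sample received a control oligonucleotide. The labels number the replicates 1 to 4, with the same numbers in both groups. The array descriptions likewise run from DC1 to DC4 and from DC1 CpG to DC4 CpG. They name no separate animals or cultures. The spread between replicates may thus be technical. Whether an untreated and a CpG sample of one number share an animal or culture is not given.

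miR-34a is a 5p miRNA whose hairpin lies in a gene of its own and which is a well-known transcriptional target of p53. Through its seed, the bases that pair with target mRNAs, it represses regulators of the cell cycle, of survival and of the Notch and Wnt pathways. In human monocyte-derived dendritic cells it is known, with miR-21, for acting on JAG1 and WNT1 during differentiation.

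The mature sequences show what the array had to tell apart. They are from RefSeq (GRCm38.p6), read 5′ to 3′, with the seed (bases 2 to 8) in capitals.
miR-34a: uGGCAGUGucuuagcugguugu
miR-34b-5p: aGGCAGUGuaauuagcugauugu
miR-449a: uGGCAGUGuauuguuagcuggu
miR-449c: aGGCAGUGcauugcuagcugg
miR-34b-3p: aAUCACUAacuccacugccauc
miR-34c*: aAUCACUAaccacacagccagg
The first 4 share the seed and are the only ones of 1679 mature mouse names in that table that do. Of the 8 miRNAs of the miR-34 and miR-449 hairpins on the array, 6 were matched there. miR-34c and miR-449b had no entry and are named only. Their seeds could thus not be checked, and the count does not show that they lack the shared seed. Beyond the seed the first 4 differ in length and spacing. With 1 gap of at most 3 bases allowed, 19 of the 22 bases of miR-34a matched miR-34b-5p, which has 1 extra base after position 9, 18 matched miR-449a and 15 matched miR-449c. With no gap, position by position from the 5′ end, 15 of 22 were the same in miR-449a, 11 of 22 in miR-34b-5p and 12 of 21 in miR-449c.

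The Mir34a hairpin below shows in capitals where the measured arm lies, at bases 20 to 41 of 102.
Mir34a hairpin: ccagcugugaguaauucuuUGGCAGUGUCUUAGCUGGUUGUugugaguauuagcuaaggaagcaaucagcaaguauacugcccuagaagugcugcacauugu
In the RefSeq annotation Mir34a overlaps no other listed gene and lies between Gm13067 and Gpr157. Mir34b and Mir34c both overlap Btg4 and Hoatz, and Mir449a, Mir449b and Mir449c overlap Cdc20b, with strands not compared. On the array miR-34a had 2 probes, each printed at 10 spots. Probe A_54_P2498 covers 19 bases of the miRNA, given by the array's annotation as chr4:149442585-149442603 (mm9), and probe A_54_P2499 covers 20 bases, chr4:149442584-149442603. The probes thus share their target and are no replicates of each other.

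miR-34a was detected on all 8 arrays and gave one of the brighter miRNA signals of these cells. Its deposited total gene signal, an intensity with no scaling between arrays, was 754.6, 650.6, 791.0 and 442.5 in untreated replicates 1 to 4. In CpG replicates 1 to 4 it was 1052, 1112, 984 and 1112. Every CpG array was above every untreated array, and untreated replicate 4 was the lowest of all 8. The deposited error of a single value was between 7.89% and 8.06% of it. The group means were 660 ± 157 and 1065 ± 61.1 (SD, n = 4), a log2 difference of 0.72 or 1.65-fold, with an exact two-sided permutation p of 0.0286, the smallest that 4 against 4 arrays allow.

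The arrays themselves also differed in brightness between the groups. The 75th percentile of signal over the 177 miRNAs detected on all 8 arrays was 101, 124, 144 and 120 intensity units on untreated arrays 1 to 4. On CpG arrays 1 to 4 it was 157, 252, 180 and 280.5. It was higher on each CpG array than on any untreated one, with a log2 difference of 0.80 against 0.73 for the mean spot signal of miR-34a. Without scaling the median difference over the 212 tested miRNAs was 0.60. On that unscaled footing 84 of the 212, or 39.6%, were higher on every CpG array than on any untreated one, and 41.5% passed the test as higher (limma, adjusted p under 0.05). What set the brightness of the arrays was not tested.

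After each array was divided by its 75th percentile, miR-34a did not differ detectably between the groups. On the log2 scale, where 0 is that percentile, it was at 2.40, 1.95, 1.96 and 1.42 in untreated replicates 1 to 4. In CpG replicates 1 to 4 it was at 2.25, 1.70, 1.96 and 1.54. Both groups ran from a high replicate 1 to a low replicate 4, with replicates 2 and 3 between, and they overlapped over nearly their whole range. The means were 1.93 ± 0.40 and 1.86 ± 0.31 (SD, n = 4). The difference, CpG minus untreated, was −0.07 (SE 0.23, limma adjusted p = 0.82), a 0.951-fold level with a 95% confidence interval from 0.664-fold to 1.36-fold. That interval spans both a lower and a higher level with CpG, so no direction of change can be read from it. It gives the precision of the estimate and is no limit of detection. The smallest change that these 8 arrays could detect was not tested.

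**Figure D1:**
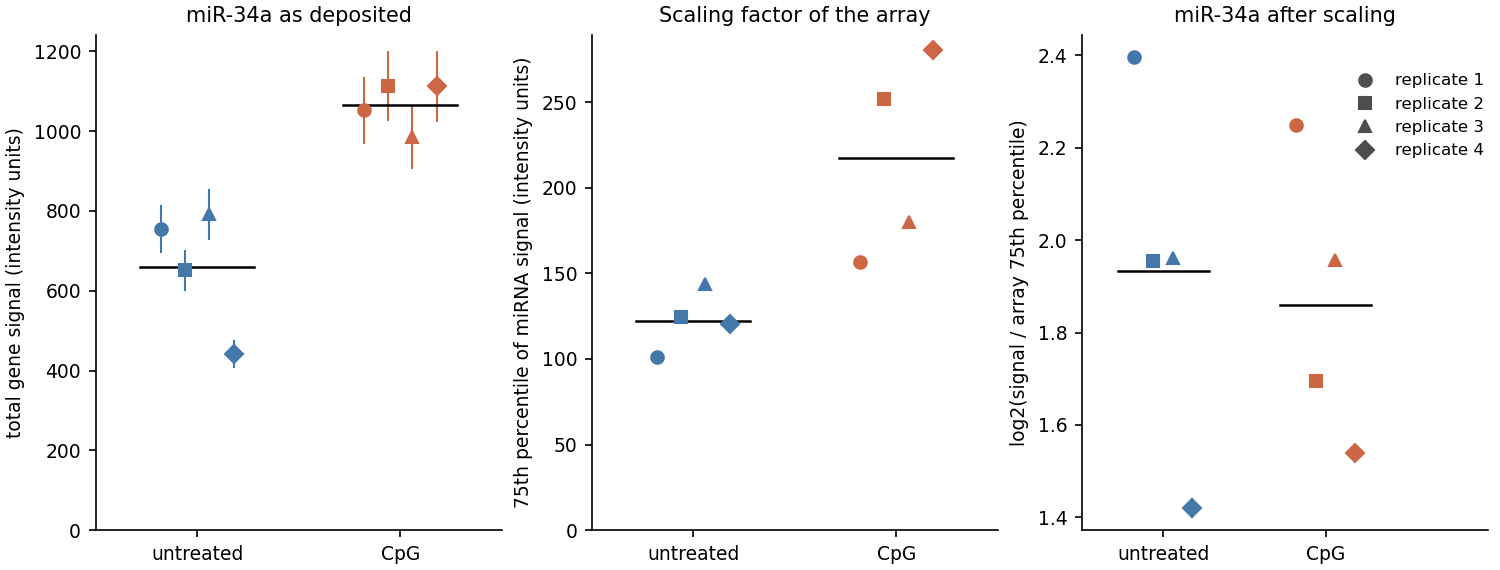
miR-34a in each array, with untreated samples in blue, CpG samples in orange, marker shape for the replicate number and black lines for group means. The left panel gives the deposited total gene signal with its deposited error, the middle panel the array's 75th percentile of miRNA signal, both in intensity units, and the right panel the log2 scaled signal on an axis that does not start at 0; the groups are apart in the first 2 panels (means 660 and 1065, then 122 and 217) and overlap in the last (1.93 and 1.86).

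The plot of miR-34a by array shows these quantities side by side. In the scaled test 30 of 212 miRNAs, 14.2%, passed, 16 higher and 14 lower, and miR-34a was not among them. With other scalings the higher and lower calls were split otherwise, 88 to 0 with none, 70 to 2 on control features of the array, 17 to 5 by median-of-ratios, 16 to 7 with the percentile over all mouse miRNAs, and 6 to 132 when normexp background correction came first. The median difference of all tested miRNAs was −0.19, so that miR-34a lay 0.12 above it and held place 91 of 212 when differences were ordered from the highest. Its spread within groups, a residual SD of 0.36 on the log2 scale, was above the median miRNA's 0.30 and stood at place 134 of 212 from the lowest. The number of miRNAs that passed depended on single arrays: it was 11, 5 and 14 without untreated replicates 1, 2 and 4, and 71, 13 and 7 without CpG replicates 1, 2 and 3. The difference of miR-34a turned positive, at 0.13 and 0.03, when untreated replicate 1 or CpG replicate 4 was left out, and passed in neither case.

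The spread of the unscaled signal of miR-34a was below that of the array percentile with CpG and above it without. In the CpG group the unscaled log2 signal of miR-34a had an SD of only 0.11, while the log2 of the arrays' 75th percentile had an SD of 0.40, and the scaled signal an SD of 0.31. There the scaled order, replicate 1 highest and replicate 4 lowest, was the reverse of the order of the percentiles. In the untreated group the unscaled signal of miR-34a itself varied more, with an SD of 0.36 against 0.21 for the percentile. Before scaling the mean spot signal of miR-34a was 745, 816, 700 and 815 intensity units in CpG replicates 1 to 4, lowest in replicate 3. The order of the scaled CpG values was thus absent before each array was divided by its percentile.

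The difference of miR-34a was followed under 27 other ways of processing. It ranged from −0.21 to 0.73 and was negative in 17 and positive in 10. It passed the test in 2, both without any scaling between arrays: 0.73 on the unscaled spot signals (limma adjusted p = 0.0293) and 0.72 in the authors' deposited table of filtered intensities (limma adjusted p = 0.0465). Quantile normalization gave 0.14, cyclic loess 0.11 and median-of-ratios scaling 0.17, none of which passed. Scaling on 4 bright control features of the array named hur gave 0.49, with a limma adjusted p of 0.0832. These features themselves differed by 0.24 on the log2 scale between the groups, which overlapped (exact two-sided permutation p = 0.143). Whether miR-34a is read as higher with CpG or as not detectably different thus turns on the scaling.

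**Figure D2:**
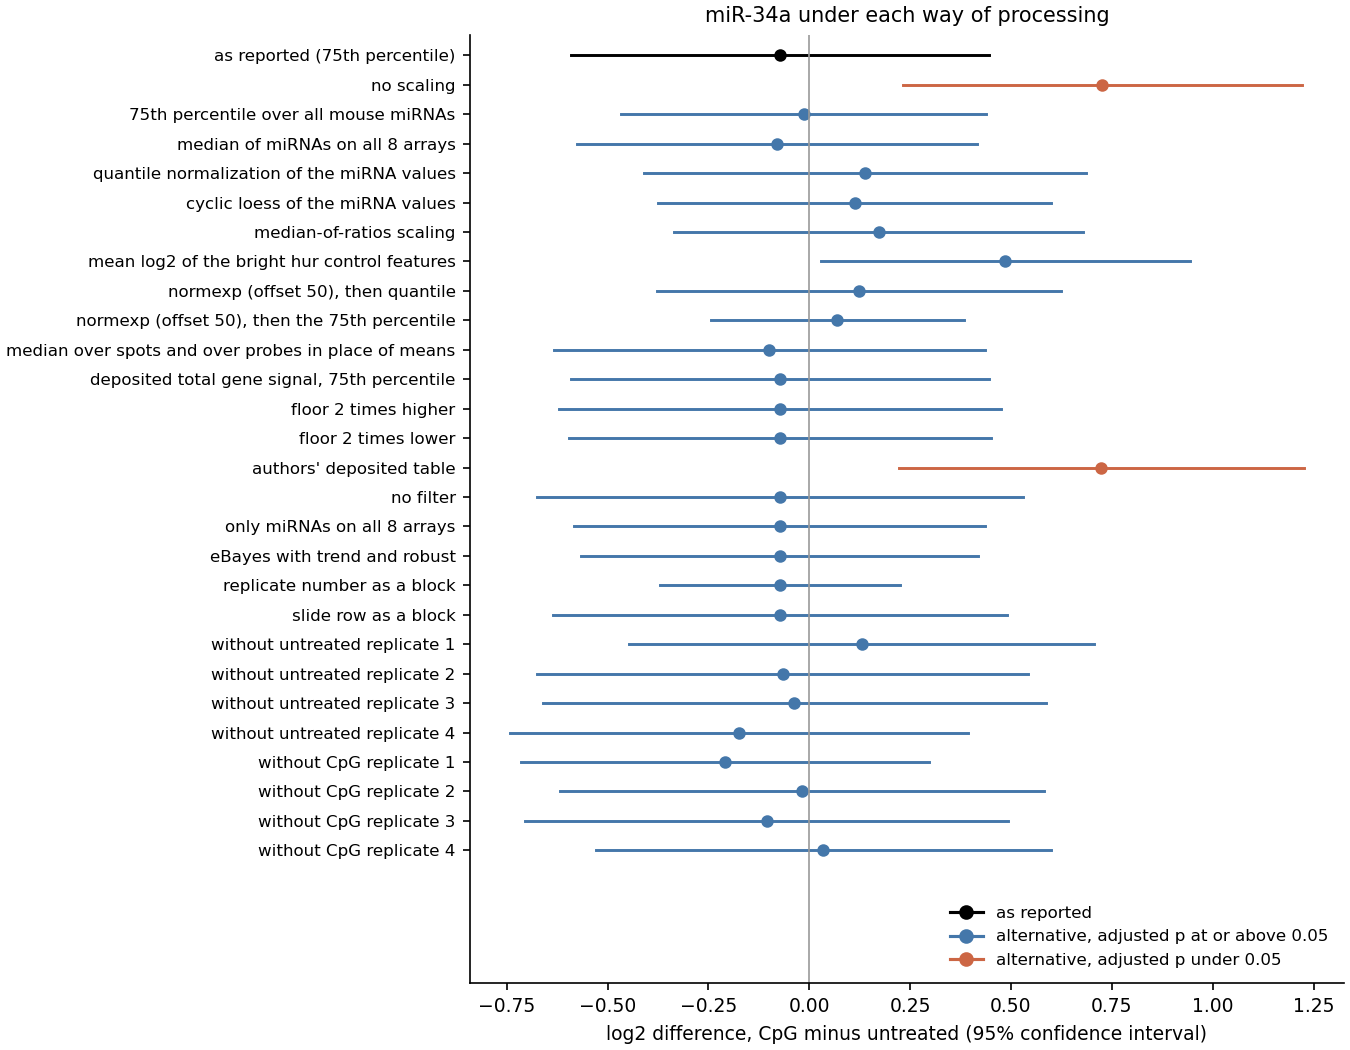
The log2 difference of miR-34a, CpG minus untreated, with its 95% confidence interval under the reported processing (black) and each of 27 alternatives (blue, or orange where the adjusted p was under 0.05). The values lie between −0.21 and 0.73, and the 2 orange ones are those with no scaling between arrays.

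The alternatives in that plot of intervals were near 0 for the percentile, median, floor and filter choices, between 0.07 and 0.17 for quantile, loess, median-of-ratios and normexp values, and highest for the hur features and for no scaling. All 8 arrays were on 1 slide and came from 1 scan. Within the first row of the slide the scaled difference was −0.01 and within the second −0.13, and the unscaled difference was 0.91 and 0.54. Each pair of arrays with one replicate number sat side by side, so that replicate number and position on the slide cannot be told apart.

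The 2 probes gave the same picture at different brightness. Probe A_54_P2498 had a mean spot signal of 255.5, 219, 276 and 157 intensity units on untreated arrays 1 to 4. On CpG arrays 1 to 4 it had 355, 415, 352 and 379. Probe A_54_P2499, which reaches 1 base further, had 809, 745, 844 and 488 on the untreated arrays. On the CpG arrays it had 1135, 1218, 1047 and 1251. Both probes were lowest on untreated array 4 and higher on every CpG array than on any untreated array. Unscaled, they differed by 0.76 and 0.72 on the log2 scale (exact two-sided permutation p = 0.0286 for each). Scaled, they differed by −0.04 and −0.08 (exact two-sided permutation p = 0.83 and 0.714, both 0.83 after Benjamini-Hochberg adjustment over the probes).

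**Figure D3:**
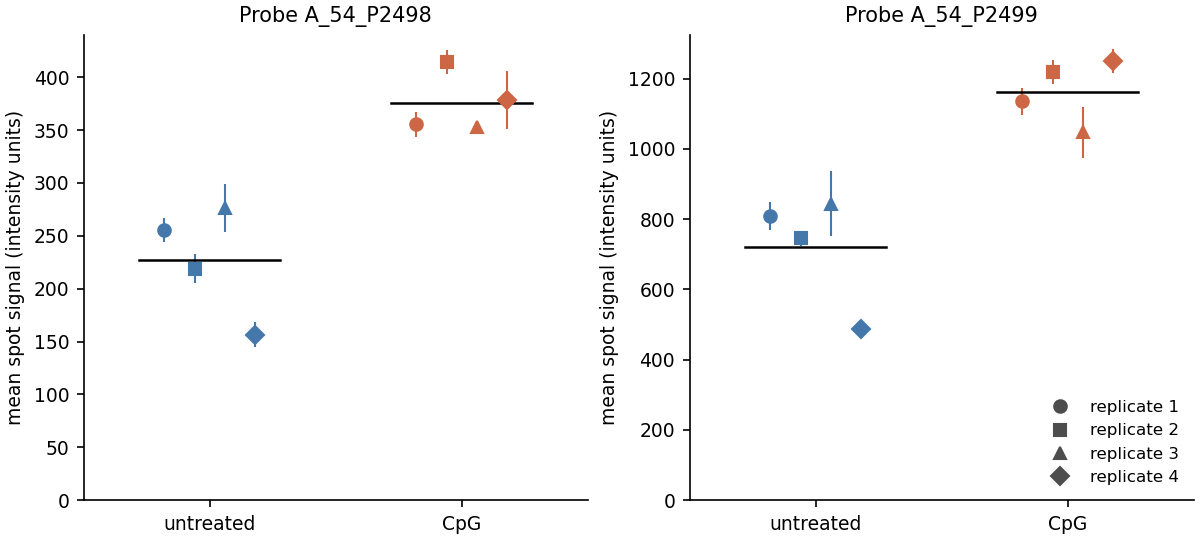
Mean spot signal of each miR-34a probe in intensity units, by group, with marker shape for the replicate number, error bars of 1 SD over the spots of an array, and black lines for group means. Both probes have their lowest array in untreated replicate 4 (157 and 488) and no overlap between groups.

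As the plot of the probes shows, the SD over spots within an array, from 4.61 to 27.3 intensity units for A_54_P2498 and from 10.6 to 93.0 for A_54_P2499, lay below the differences between group means, 148 and 441. Within the CpG group it reached 27.3 and 72.5, close to the SD between arrays of 28.8 and 91.0. Between 0 and 4 of the 10 spots of a probe carried an outlier flag on an array and were left out. Every spot used was well above background and none was saturated, with local background between 40.6 and 42.9 intensity units. The coefficient of variation over spots was between 1.31% and 11.02%. The log2 ratio of the longer to the shorter probe was 1.67 ± 0.069 without and 1.63 ± 0.082 with CpG (SD, n = 4; exact two-sided permutation p = 0.486).

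Ranks use no scaling between arrays. By signal, miR-34a stood at place 21, 23, 23 and 28 of 567 on untreated arrays 1 to 4 and at place 21, 23, 23 and 23 on CpG arrays 1 to 4. It was brighter than 85.5% to 90.3% of the miRNAs detected on the same array, of which there were between 191 and 203 on untreated and between 213 and 236 on CpG arrays. Probes differ in response, so a place orders signals and not amounts. In mean scaled signal its neighbours were let-7g (2.44) and miR-1224 (2.38) above and miR-23b (1.45) and miR-19b (1.44) below. Each of the lower 2 was brighter than miR-34a on 1 untreated array and on no CpG array, while let-7g was brighter on 4 untreated and 3 CpG arrays.

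A ratio of 2 miRNAs on the same array also needs no scaling, and its change, though not its level, can be read across arrays. The log2 signal of miR-155, the miRNA that Toll-like receptor signalling is best known to induce, exceeded that of miR-34a by 0.37 ± 0.35 without and by 2.36 ± 0.47 with CpG (SD, n = 4). The shift of 1.99 came with an exact two-sided permutation p of 0.0286, or 0.0572 after adjustment over the 2 ratios computed. For miR-21, the abundant miRNA linked with miR-34a in dendritic cell differentiation, the excess was 4.86 ± 0.35 and 4.82 ± 0.32, and its change of −0.04 had an exact two-sided permutation p of 0.714. The ratio of miR-155 to miR-34a thus moved by more than the SD between arrays, with no overlap between groups. Its permutation p of 0.0286 was the smallest that 4 against 4 arrays allow. With the other ratio at 0.714, the adjusted p could not fall under 0.05, so missing that threshold tells nothing about the ratio. The ratio of miR-21 to miR-34a moved by less than that SD.

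Of the other family members, few were seen at all. miR-34b-3p, from the opposite arm to the shared seed, had a total gene signal of 11.8, 7.67, 13.5 and 3.50 on untreated arrays 1 to 4, the last not detected. On CpG arrays 1 to 4 it was detected throughout, at 8.65, 23.8, 11.9 and 26.7. The groups overlapped, and the scaled difference was 0.18 (SE 0.40, limma adjusted p = 0.742). Its difference was −0.46, and passed (limma adjusted p = 0.00455), when background was corrected by normexp before the percentile scaling. Most tested miRNAs were called lower in that setting. The median difference over all 212 was −0.36, and miR-34b-3p held place 140 from the highest, so the call is not particular to it.

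miR-34b-5p, which shares the seed of miR-34a, was detected on 1 array of each group, replicate 1 in both. It read 9.57 on the untreated array of replicate 1 and 12.2 on its CpG array, against 0.794 to 2.99 on the other untreated and 2.79 to 4.94 on the other CpG arrays. miR-34c, made from the neighbouring hairpin, behaved likewise, with 6.39 and 9.00 on the arrays of replicate 1. Elsewhere it read from −0.813 to 0.197 in untreated and from 0.760 to 2.60 in CpG samples. With miR-582-5p these were the only 3 miRNAs detected on both arrays of replicate 1 and on no other array, and no miRNA had such a pattern for replicate 2, 3 or 4. miR-34a was itself highest in replicate 1 of both groups after scaling, but not in its unscaled total gene signal. There untreated replicate 3 (791.0) was above untreated replicate 1 (754.6). CpG replicates 2 and 4 (1112 each) were above CpG replicate 1 (1052). miR-34c*, miR-449a, miR-449b and miR-449c were detected on 0 arrays, with readings from −2.12 to 5.18.

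**Figure D4:**
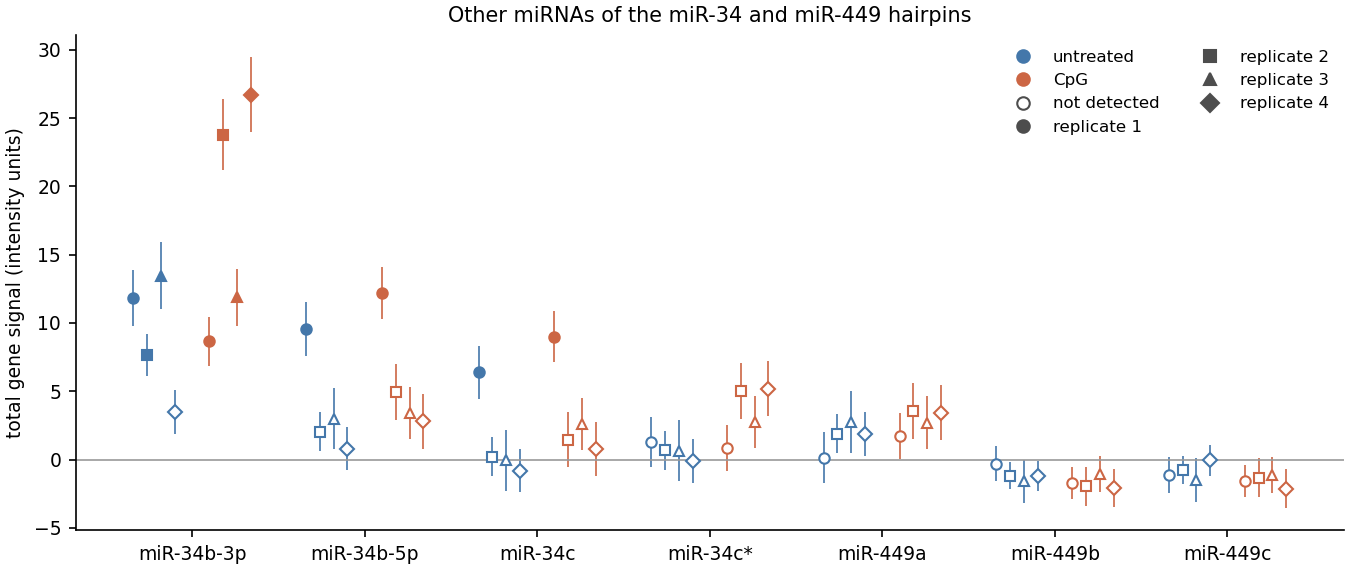
Deposited total gene signal, in intensity units with its deposited error, of the other 7 miRNAs of the miR-34 and miR-449 hairpins on each array; open markers were not detected, colour gives the group and marker shape the replicate number. miR-34b-5p (9.57 and 12.2) and miR-34c (6.39 and 9.00) stand out on the arrays of replicate 1 in both groups, and the last 4 are detected nowhere.

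The plot of the family shows how far below miR-34a these signals lay on the scanner's scale, though probes of different miRNAs respond differently. After scaling, miR-34a was highest in replicate 1 and lowest in replicate 4 of both groups. That pattern was held by 9 of the 177 miRNAs detected on all arrays (5.08%): miR-132, miR-149, miR-193b, miR-219, miR-29b*, miR-34a, miR-877, miR-9 and miR-9*. On the same scaled values any 1 replicate was highest, and any other lowest, in both groups for 24 of the 177 (13.6%). Without scaling, the total gene signal of miR-34a in the CpG group was lowest in replicate 3 (984) and not highest in replicate 1 (1052). In the untreated group it was highest in replicate 3 (791.0).

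The miRNAs whose scaled log2 signal followed that of miR-34a most closely over the 8 arrays were, of 176 compared, miR-9* (Pearson r = 0.965), miR-193b (0.962), miR-132 (0.934), miR-9 (0.924) and miR-674* (0.884). miR-9* and miR-9 are the 2 arms of one hairpin, a miRNA best known from neurons that also responds to Toll-like receptors in myeloid cells, and miR-132 is a CREB-responsive miRNA with known roles in innate immunity. The values are a description over 8 arrays that share the same scaling factors. With the group means taken out, r was between 0.926 and 0.973 for these 5. Without scaling, and with the group means taken out, r fell to between 0.789 and 0.916, and the 5 held places 2, 5, 6, 7 and 9. None of them passed the scaled test of CpG against untreated, with differences from −0.31 for miR-132 to 0.12 for miR-674*.

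**Figure D5:**
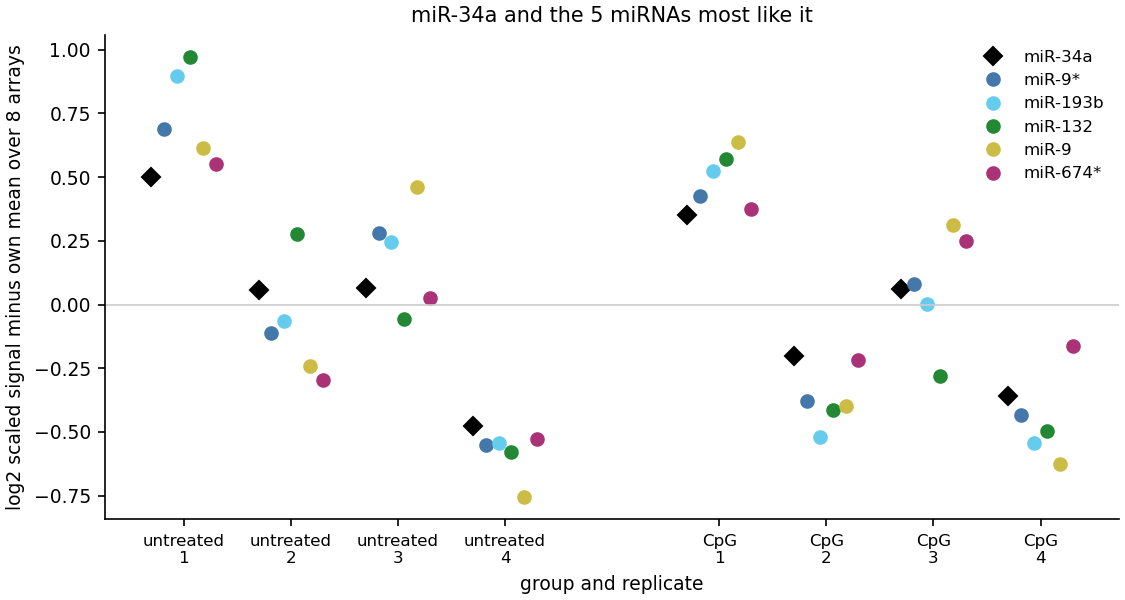
Log2 scaled signal of miR-34a (black diamonds) and of the 5 miRNAs with the highest correlation to it, each minus its own mean over the 8 arrays, for every array by group and replicate number. All 6 lie above 0 in replicate 1 and below 0 in replicate 4 of both groups. The 5 were chosen by their correlation over these same arrays, so a shared order is no separate result.

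In the plot of miR-34a and its likest miRNAs, replicate 1 is the highest array of both groups for all 6. The order of the other arrays differs: miR-674* was lowest in replicate 2 of the CpG group, at −2.30, and not in replicate 4, at −2.24.

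miR-34a is also one of the miRNAs that p53 is known to raise. Of 11 such miRNAs 10 were on the array, 7 were detected on any array and 5 were tested. None was called higher by limma, against 7.55% of all tested miRNAs, and 1 was called lower, against 6.6%. At an unadjusted p under 0.05 none was higher, beside 13.7% of all tested, and 2 of the 5 were lower, miR-192 and miR-107, beside 26.4% of all tested (40.1% in either direction). The called one was miR-192, known as a p53 target and made from 1 cluster with a copy of miR-194, with −2.99, −2.92, −3.37 and −3.27 on untreated arrays 1 to 4. On CpG arrays 1 to 4 it had −3.87, −3.73, −3.78 and −3.63 on the log2 scaled scale, below every untreated value. It differed by −0.62 (SE 0.15, limma adjusted p = 0.0284). The call was lost on leaving out replicate 1, 2 or 4 of the untreated group or 2 or 3 of the CpG group (−0.52, −0.54, −0.59, −0.63 and −0.61), and without scaling the difference was 0.18. It held under 14 of the 27 alternatives. miR-194 differed by −0.26 (limma adjusted p = 0.212) and miR-107 by −0.33 (limma adjusted p = 0.111). miR-215, miR-143 and miR-145 were detected on no array. The median difference of the 5 tested was −0.26, beside −0.19 over all tested miRNAs.

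All 17 miRNAs of a list linked with dendritic cell differentiation were tested, of which 3 were called higher, beside 7.55% of all tested, and 1 lower, beside 6.6%. The other 13, miR-34a among them, were not called. The median difference of the list was −0.07, which is the value of miR-34a itself. Without miR-34a it was −0.086, beside −0.19 over all tested miRNAs. miR-155 was at 2.59, 2.01, 2.81 and 1.78 on untreated arrays 1 to 4 and at 3.93, 4.28, 4.38 and 4.29 on CpG arrays 1 to 4. It rose by 1.92 on the log2 scale (SE 0.24, limma adjusted p = 0.000956), with no overlap between groups and under all 27 alternatives. miR-222, which is made with miR-221 and represses the cell cycle inhibitor p27, was between −1.41 and −0.77 in untreated and between −0.24 and 0.38 in CpG samples. It rose by 1.14 (SE 0.20, limma adjusted p = 0.0111). That call held under 26 of the 27 alternatives and was lost when all 567 miRNAs were tested with no filter on detection (limma adjusted p = 0.0751), as were the calls of miR-146a, miR-192 and miR-223.

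miR-146a, which NF-κB induces and which damps Toll-like receptor signalling through IRAK1 and TRAF6, was between −1.45 and −0.72 in untreated and between −0.64 and 0.19 in CpG samples. It rose by 0.92 (SE 0.23, limma adjusted p = 0.0355), and the call was lost on leaving out replicate 1 or 2 of the untreated group or 2 or 3 of the CpG group (0.85, 1.00, 0.79 and 0.86). It held under 20 of the 27 alternatives. miR-223, the miRNA of granulocytes and other myeloid cells, was between 3.18 and 3.62 in untreated and between 2.65 and 2.97 in CpG samples. It fell by 0.60 on the log2 scale (SE 0.15, limma adjusted p = 0.0284). Its call was lost on leaving out replicate 1, 2 or 4 of the untreated group or 2 or 3 of the CpG group (−0.54, −0.54, −0.53, −0.54 and −0.64), and without scaling the difference was 0.20. It held under 12 of the 27 alternatives. miR-21, at 6.79 ± 0.16 without and 6.68 ± 0.18 with CpG (SD, n = 4), differed by −0.11 (limma adjusted p = 0.575).

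The label of myeloid cells was checked against marker miRNAs. All 4 myeloid markers (miR-223, miR-142-3p, miR-142-5p and miR-155) were detected on every array, with a summed scaled signal of 24.2 to 28.6 in untreated and 32.0 to 38.6 in CpG samples. The higher sum was that of miR-155, at 3.45 to 7.02 without and 15.2 to 20.8 with CpG. The other 3 markers summed to 19.3 to 22.6 without and to a lower 14.3 to 17.7 with CpG, with no overlap. After scaling the groups did not overlap for 57 of the 212 tested miRNAs (26.9%), of which 42 were lower with CpG. Of these 3 markers only miR-223 was called, and miR-142-3p and miR-142-5p differed by −0.20 and −0.02. None of the 2 erythroid, 2 endothelial and 3 stromal markers on the array was detected in any sample. Of 3 lymphoid markers miR-181a and miR-181b were detected and miR-150 was not, with a sum of 1.29 to 1.59 in untreated and 0.963 to 1.58 in CpG samples. Of 5 epithelial markers 3 were detected on at least 1 array, with sums of 0.0961 to 0.130 and 0.0856 to 0.0976. In RNA from a whole culture, a different share of cells with miR-34a and a different level of miR-34a per cell cannot be told apart.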

How the data were processed

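miRNA was measured in 8 samples on 1-colour Agilent arrays. Per the file headers, Agilent Feature Extraction 9.5.3.1 made the deposited files, in which the processed signal of a spot and the total gene signal of a miRNA are intensities after background subtraction and detrending, with no scaling between arrays, and detection is a flag of 0 or 1. The authors' deposited table of filtered intensities held the same total gene signals for miR-34a. Per the submitters' processing notes limma was used, for steps not given there.

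From the processed signals, spots flagged as outliers were dropped, the rest averaged per probe and then per miRNA, and each array was divided by its own 75th percentile, taken over the 177 miRNAs that every array detected. Lower values were raised to 0.0107 (log2 of −6.55), which is the lowest scaled signal of a detected miRNA, as a median of the 8 arrays, and log2 was taken. A miRNA detected on at least 3 of 4 arrays of a group was tested (212 of 567) by lmFit and eBayes of limma 3.58.1 (R 4.3.3), two-sided, at a Benjamini-Hochberg adjusted p under 0.05, a fit first tested on simulated data. Single values were compared by exact permutation of the 70 arrangements of arrays. The number of arrays limits the precision.

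miR-34a, the lists and the alternatives were chosen with earlier results of these data known. Named were miR-34a, its family, detected p53-linked miRNAs, miR-21, miR-155 and called members of the dendritic cell list, the 5 likest miRNAs and the 2 neighbours by signal on each side. miR-582-5p and the miRNAs that share the order of replicates were named after their values were seen. RefSeq coordinates were used only to find genes that overlap or flank the hairpins, without regard to strand. They were not set against the array's coordinates, whose build differs. Python 3.11.15, pandas 2.3.3 and matplotlib 3.10.9 prepared the values and figures.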

Additional observations from a re-analysis of the deposited data

Results flagged for a closer look

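Of 54 groups of 4 values checked, 2 held a sample well apart from the rest, and about 1 group in 20 does so by chance. The total gene signal of miR-34c was 6.39 in untreated replicate 1 against a mean of −0.223 in the other 3 untreated samples, and the gap to the nearest was 0.86 of the group's range. The place of miR-34a by signal was 21 in CpG replicate 1 and 23 in each of the other 3 CpG samples.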

How the results depend on the processing

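Across 27 alternatives the difference of miR-34a was between −0.21 and 0.73, and between −0.21 and 0.13 when single arrays were left out. It turned positive with no scaling (0.73), quantile (0.14), cyclic loess (0.11), median-of-ratios (0.17), the hur features (0.49), normexp with quantile (0.12) or with the 75th percentile (0.070), and the authors' deposited table (0.72). Its probes read 0.76 and 0.72 with no scaling. Of the 30 miRNAs called, the count became 88 with no scaling, 18 with the median, 19 with quantile, 72 with the hur features, 12 and 138 with normexp before quantile and before the percentile, 48 with a floor 2 times higher, 61 in the authors' table and 3 with no filter, and 5 to 71 without single arrays. The higher and lower calls were 16 and 14 as reported, 88 and 0 with no scaling, 70 and 2 with the hur features, 17 and 5 with median-of-ratios, 16 and 7 with the percentile over all mouse miRNAs, 6 and 132 with normexp and the percentile, and 14 and 34 with the higher floor. Among 377 values of 14 other miRNAs, 293 kept direction and call, 38 changed sign with no call, 32 lost a call, 7 gained one and 7 turned round: miR-34b-3p (−0.46), miR-192 (0.18 and 0.18), miR-223 (0.20 and 0.19) and miR-21 (0.69 and 0.45). Apart from the settings with no scaling, whose construction leaves in the arrays' brightness, the cause was not tested. Of the 5 likest miRNAs 3 stayed with group means out, 3 with quantile values, and 2 with no scaling and group means out, an alternative chosen after seeing the data.

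With the replicate number as a block, the difference of miR-34a was −0.07 (SE 0.12, limma adjusted p = 0.654), and 38 miRNAs were called. Deviations of same-numbered arrays correlated at 0.28, −0.26, 0.25 and 0.096, and 1 of 4 untreated arrays correlated best with its own number. With so few arrays these values cannot decide whether the numbers pair the samples. The labels share their numbers between the groups, but neither they nor the processing notes state a pairing, so the block was kept as an alternative. Signal over background does not limit miR-34a, whose spots were all well above it, but limits miR-34b-5p, miR-34c and the undetected family members, for which these arrays give no difference.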
